A study of Saccharomyces cerevisiae with 30 samples.

Results

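Break-seq peak lists of INO80-depleted budding yeast (Saccharomyces cerevisiae) were compared with and without hydroxyurea (HU). The 4 libraries, of 16 Break-seq libraries and 30 samples in the series, were 2 of the INO80-FRB strain given 100 mM HU and 2 of the same strain without HU. All 4 had 3 h of rapamycin before harvest, from cells grown to log phase in rich medium, and the time in HU is not given in the sources used here. FRB is the tag of the anchor-away system, in which rapamycin ties the tagged protein to a partner that carries it out of the nucleus, so that in INO80-FRB cells the nuclear pool of INO80 is depleted in both groups. The strain labelled WT-FRB, also with and without HU and also given rapamycin, served for comparison with 2 libraries per group. The strains INO80-FRB Mot1-FRB and Mot1-FRB, with 100 mM HU or none and 3 h of rapamycin, were used for the presence of peaks. They too had 2 libraries per group. Break lists do not measure how far INO80 was depleted, and nothing in the labels says that the replicates came from separate cultures.

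Break-seq labels free DNA ends in cells embedded in agarose and sequences the DNA next to them, so a peak marks a place where labelled ends were more frequent than in the surroundings. HU inhibits ribonucleotide reductase, which lowers deoxynucleotide supply and slows or stalls replication forks. INO80 is the ATPase of a chromatin remodelling complex that slides and spaces nucleosomes and is known from budding yeast to act in transcription, at stalled forks and at DNA double-strand breaks.

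All peaks of the 4 INO80-FRB lists were merged where they overlapped, which gave 431 regions. A region was called gained with a peak in both HU lists and in neither list without HU, lost in the reverse case, and shared with a peak in all 4. By that rule 19 regions were gained (4.41%), 8 were lost (1.86%) and 199 were shared (46.2%). A further 58 regions lay in 3 lists, 33 lay in 1 list with and 1 list without HU, and 114 lay in 1 list. These shares are the outcome of the rule, and no test applies to them. With the 300 highest-scoring peaks of each list the counts were 14 gained and 17 lost, and with peaks up to 500 bp apart merged they were 9 and 3. A rule over 3 lists gave more: 59 gained and 36 lost without HU replicate 1, 50 and 20 without HU replicate 2, 35 and 23 without replicate 1 of the cells with no HU, and 24 and 41 without its replicate 2.

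The number of peaks was alike in the groups. The HU lists held 358 and 347 peaks, against 365 and 318 in the lists without HU, a difference of 0.05 on the log2 scale (exact permutation test over 6 arrangements, two-sided, p = 1). With 2 libraries against 2, the smallest p this test can give is 0.333, so no difference between these groups can pass the threshold of 0.05. The peaks covered 174 and 165 kb with HU, against 187 and 162 kb without. Read totals are unknown. As a stand-in for depth, the lowest local background recovered from a list's peaks was 8.44 and 10.7 reads with HU, against 9.39 and 8.11 reads without.

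The 4 lists were about as similar across treatments as within them. The Jaccard index, the base pairs covered by both lists over those covered by either, was 0.602 for the pair of HU lists and 0.670 for the pair without HU. It lay between 0.586 and 0.638 for the 4 pairs that crossed the treatments. The authors' fold of a peak over its local background also ranked the 199 shared regions alike in every pair of lists, with Spearman's rho between 0.83 and 0.901 across regions. Regions are not independent replicates, and many lie in copies of the same repeat.

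A gained region has a value only in the HU lists, because a list gives none where no peak was called. The gained regions were of middling to low height. Their highest fold per region had a median of 2.23 in each HU list (range 1.35 to 3.18 in replicate 1 and 1.25 to 3.09 in replicate 2), which put the median region at percentile 37.2 and 39.8 of all peaks in its list. Lost regions had median folds of 2.15 and 2.11 in the lists without HU, at percentiles 35.9 and 26.6. Shared regions had median folds of 2.62 and 2.49 with HU and 2.59 and 2.63 without. Gained and lost regions were also narrow, with median widths of 321 and 324 bp, against 713 bp for shared regions. A shared region merges peaks of all lists and a gained or lost region those of a single treatment, which favours wider shared regions. A wider region can also hold more peaks of a list, from which the highest fold was taken. Low peaks are more easily missed in a list, so the rule also favours low gained and lost regions. How far the rule built in these differences in fold and width was not tested.

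**Figure D1:**
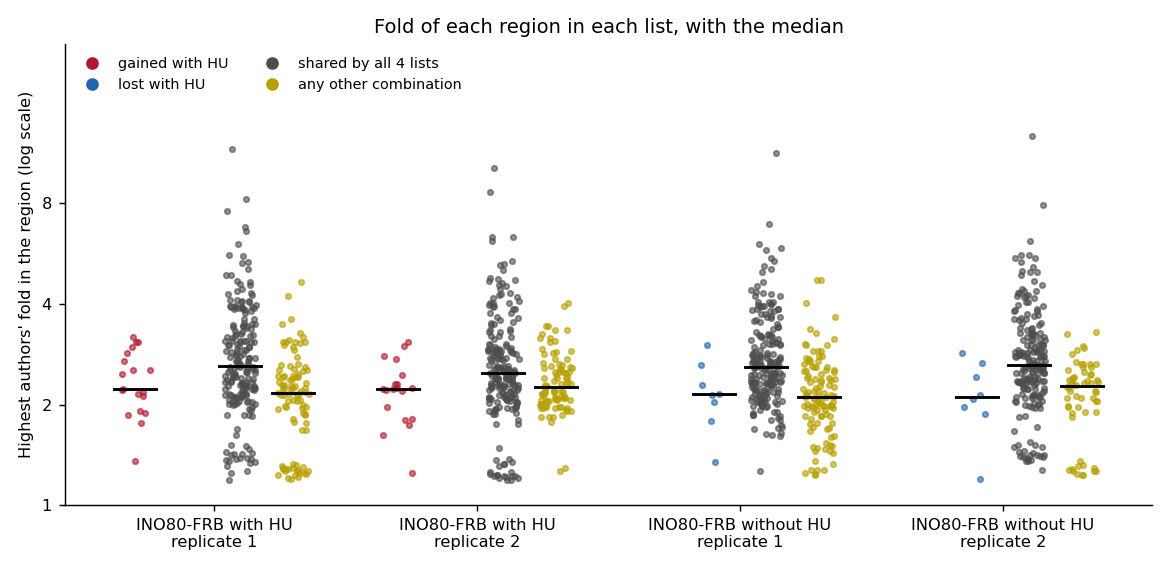
Highest authors' fold (log axis) of each merged region in each INO80-FRB list, HU lists on the left, with points for single regions and black bars for medians. Gained and lost regions have medians between 2.11 and 2.23, below the shared regions (2.49 to 2.63), and none reaches the tallest shared peaks, which go up to 12.7. The rule itself favours this order, since shared regions merge peaks of more lists and low peaks are more easily missed.

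Of the 19 gained regions, 7 lay outside the repeat classes (the Ty-length frames described below, the outermost 10 kb of each chromosome, ribosomal RNA genes and mitochondrial DNA). They were 7 of the 94 regions there (7.45%), while none of the 8 lost regions lay there. All coordinates are of build sacCer3, counted from 1.

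Of these 7 regions, 3 lay within 500 bp of an Orc5 site, against 34 of all 94 regions outside repeats (36.2%), so the share was near that of all regions there. Orc5 belongs to the origin recognition complex, the proteins that mark replication origins, and a site is a peak of its ChIP-seq list without rapamycin. The first, chrIX:355608-356243, overlapped SGN1, which encodes a cytoplasmic RNA-binding protein, and ended 418 bp from an Orc5 peak. It had folds of 2.54 and 2.81 and summits of 23 and 35 reads in the HU lists. The second, chrXIV:561568-561976, touched an Orc5 peak 803 bp from the tRNA gene YNCN0010C, with folds of 2.54 and 2.32. The third, chrXI:202692-202856, lay 143 bp from the tRNA gene YNCK0007W and 118 bp from an Orc5 peak, and at 3.07 and 3.09 had the highest fold of the gained regions in replicate 2. Whether these Orc5 peaks are active origins was not checked.

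The other 4 were at protein-coding genes. The first lay inside HXT7 (chrIV:1155282-1155739), which encodes a high-affinity hexose transporter, with folds of 2.47 and 2.25. The next lay inside MNN4 (chrXI:64062-64402), whose product takes part in adding mannosylphosphate to cell wall glycoproteins, with folds of 3.18 and 2.46. The remaining 2 lay in promoters. The region chrIV:426985-427321 lay 43 bp from NOP1, the gene of the nucleolar protein fibrillarin, with folds of 2.86 and 2.74. The region chrVII:765788-766045 lay 182 bp from TPO2, the gene of a polyamine transporter, with folds of 2.23 and 2.23, and its summits of 20 and 25 reads were among the lowest of any nuclear peak (lowest 20 and 23 reads). HXT7 shares nearly all of its sequence with its neighbour HXT6, which had a peak in 1 HU list only, so reads of the pair may have been split between them. Chromosome XI, which carries none of the Ty-length frames, had 3 and 2 peaks with HU and 0 and 0 without. It had only 3 regions, and 2 of them were the gained regions at MNN4 and near YNCK0007W. For those the rule fixed the absence of peaks without HU in advance.

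Of the gained regions, 11 lay in the Ty-length frames, 40 unnamed open reading frames (5251 to 5410 bp) that match the long frame of Ty retrotransposons in length; no Ty annotation was used. They were 11 of 177 regions in such frames (6.21%). By length, 28 match Ty1 (5251 to 5383 bp), 10 match Ty2 (5314 bp) and 2 match Ty4 (5410 bp). All 38 frames of Ty1 or Ty2 length had a peak in all 4 lists, so in them a gained region is a piece of a frame that was broken elsewhere with and without HU. Such pieces were found with HU in YBL100W-B, YDR210W-B and YDR261W-B (Ty2 length) and in YER160C, YGR027W-B, YMR050C, YPR158W-B and YPR158C-D (Ty1 length). Their folds were 1.77 to 2.70 in replicate 1 and 1.63 to 2.25 in replicate 2. The copies are nearly identical, so which copy a read came from is uncertain.

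Of the 11 gained pieces, 10 began at 64.5% of the frame's length or later, counted in the direction of the frame, and the exception was the piece of YBL100W-B at 17.6% to 27.7%. The 64.5% mark is the start of the earliest of those 10 pieces. It was thus taken from the gained pieces themselves, which fixed the 10 of 11 in advance. Of all 177 regions in these frames, 64 began there (36.2%), and of the 96 shared ones 36 (37.5%). With a mark chosen this way, these shares are description and no test of position. In Ty2-length frames coverage near the frame's end was high in the lists of both groups, at 74.7% to 85.5% beyond 90% of the length with HU, against 76.0% to 83.9% without. Of the 5 lost pieces, those in YDR210W-B, YGR038C-B, YLR227W-B and YPL257W-B ended by 52.2%, and the piece in YGR161C-D lay at 73.5% to 78.9%. YDR210W-B held both a lost piece at 27.6% to 34.4% and a gained one at 69.6% to 74.0%.

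Coverage by all peaks was also compared with each frame cut into bins of 5% of its length. In Ty2-length frames the bin from 70% to 75% was covered to 74.4% and 71.1% with HU, against 43.5% and 47.3% without, and the next bin to 69.1% and 61.0%, against 42.1% and 42.3%. In the second 10 of the 20 bins, 5 had both HU lists above both lists without HU and 0 had the reverse. The 5 included the bin from 50% to 55%, covered to only 6.23% and 1.62% with HU, against 0% and 0% without. In the first 10 bins the counts were 1 above and 0 below. In Ty1-length frames they were 2 above and 3 below in the second 10 bins, and 1 above and 3 below in the first 10. There the bin from 85% to 90% was covered to 72.9% and 72.7% with HU, against 66.6% and 56.1% without. The bin from 35% to 40% went the other way, with 65.8% and 57.4% with HU, against 77.1% and 66.1% without. Over whole frames the groups overlapped, at 41.1% and 40.4% with HU against 44.7% and 40.4% without in Ty1 length, and at 30.8% and 33.6% against 32.4% and 26.3% in Ty2 length. The bins were not tested. A peak can span neighbouring bins, so bins are not independent. With 2 libraries against 2, the groups of a bin would be apart in 1 or the other direction in 0.333 of arrangements.

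**Figure D2:**
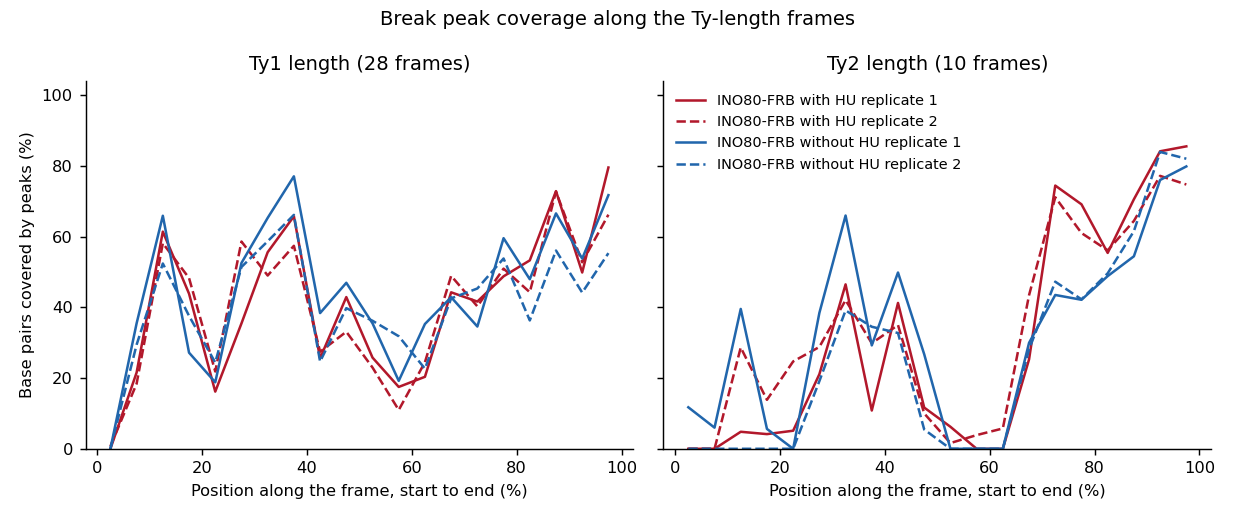
Percentage of base pairs covered by break peaks (vertical axis) in bins of 5% along the Ty1-length (left) and Ty2-length (right) frames, for the HU libraries (red) and those without HU (blue) of INO80-FRB. The curves of the groups cross along most of both panels, and between 70% and 80% of the Ty2-length frames both HU libraries (61.0% to 74.4%) lie above both others (42.1% to 47.3%).

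The Ty4 frames differed from Ty1 and Ty2 in that no peak was called in them without HU. The 3 frames annotated at the known Ty4 loci are YHL009W-B, YJL113W and YPL060C-A, of which 2 have the Ty4 length above. Among the 40 Ty-length frames, only YHL009W-B on chromosome VIII had peaks in both HU lists and in neither other list. It had 2 and 4 peaks with HU. It held a pair of gained regions. The region chrVIII:89745-90280 had folds of 2.97 and 2.32 and chrVIII:91011-91508, at the frame's end, had folds of 3.07 and 3.00. YJL113W on chromosome X had 2 and 1 peaks with HU and 0 and 0 without, although a merged region that runs past its end also held a peak of replicate 1 without HU. YPL060C-A had no peak in any INO80-FRB or WT-FRB list.

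The WT-FRB lists, which the rule did not use, showed the same Ty4 loci. YHL009W-B held 4 and 2 peaks in WT-FRB with HU, against 1 and 0 without, and the 1 peak lay elsewhere, at 13.6% of the frame. YJL113W held 2 and 0 peaks with HU, against 0 and 0 without. The Ty3 frame YGR109W-B held 2 and 1 peaks with HU and 0 and 0 without in INO80-FRB. A merged region that runs past the end of YGR109W-B also held a peak of INO80-FRB replicate 1 without HU (fold 2.89). In WT-FRB the frame held 1 and 1 peaks with HU and 3 and 2 without. In the strain depleted of both INO80 and Mot1, which removes TATA-binding protein from DNA, no Ty4 frame had a peak with or without HU.

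Of the 8 lost regions, 5 were the Ty pieces above, with folds of 2.05 to 2.64 and 1.88 to 2.67 in the lists without HU. A pair lay at chromosome ends. The region chrVIII:2904-3180 in the open reading frame YHL050C had folds of 3.02 and 2.86. The region chrXII:1068915-1069418 in YRF1-4, a helicase gene of the Y′ elements, had folds of 1.79 and 2.13. The last was in the mitochondrial gene COB, which encodes cytochrome b, with folds of 1.35 and 1.198 and 307 and 318 reads at the summit. The only gained region in mitochondrial DNA, at 4005 to 4189 with no gene within 1 kb, had folds of 1.35 and 1.25 and 306 and 322 reads. It was thus as low as the lost one.

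Gained regions were looked up in the WT-FRB lists, without a test. A peak was present at 10 and 7 of the 19 in WT-FRB with HU, against 2 and 3 without, whereas over all 431 regions the WT-FRB lists held 210 and 245 with HU, against 256 and 266 without. In 5 of the 19 a peak was present in both WT-FRB HU lists and in neither without HU, a pattern that 14 of the 431 regions had (3.25%). These 5 were HXT7, SGN1, both regions of YHL009W-B and the Orc5 site on chromosome XIV. At 8 gained regions, those near NOP1 and YNCK0007W among them, no WT-FRB list had a peak, against 75 of all 431. The lowest background of the WT-FRB lists was 10.99 and 10.7 reads with HU, against 31.1 and 24.2 without, and the part of this gap in the contrast was not tested.

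Lost regions had a peak at 3 and 2 of 8 in WT-FRB with HU, against 4 and 5 without. The pattern of both lists without HU and neither with HU was seen at 2 of the 8, YHL050C and YRF1-4, against 25 of all 431 (5.8%). In the strain depleted of INO80 and Mot1, lost regions had a peak at 0 and 0 of 8 with HU, against 7 and 5 without. That strain's HU lists were short, with 222 and 180 peaks against 310 and 310 without, and they held 168 and 137 of the 431 regions, against 258 and 233. Both lists without HU and neither with HU had a peak at 5 of the 8, against 49 of all 431. Of the 19 gained regions none had a peak in both HU lists and in neither without HU, but only 1 of all 431 had. That pattern was thus too rare in this strain to be looked for at gained regions. At 13 of the 19 no list of this strain had a peak, against 133 of all 431. The Mot1-FRB lists of 24, 5, 40 and 14 peaks were too short to compare.

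**Figure D3:**
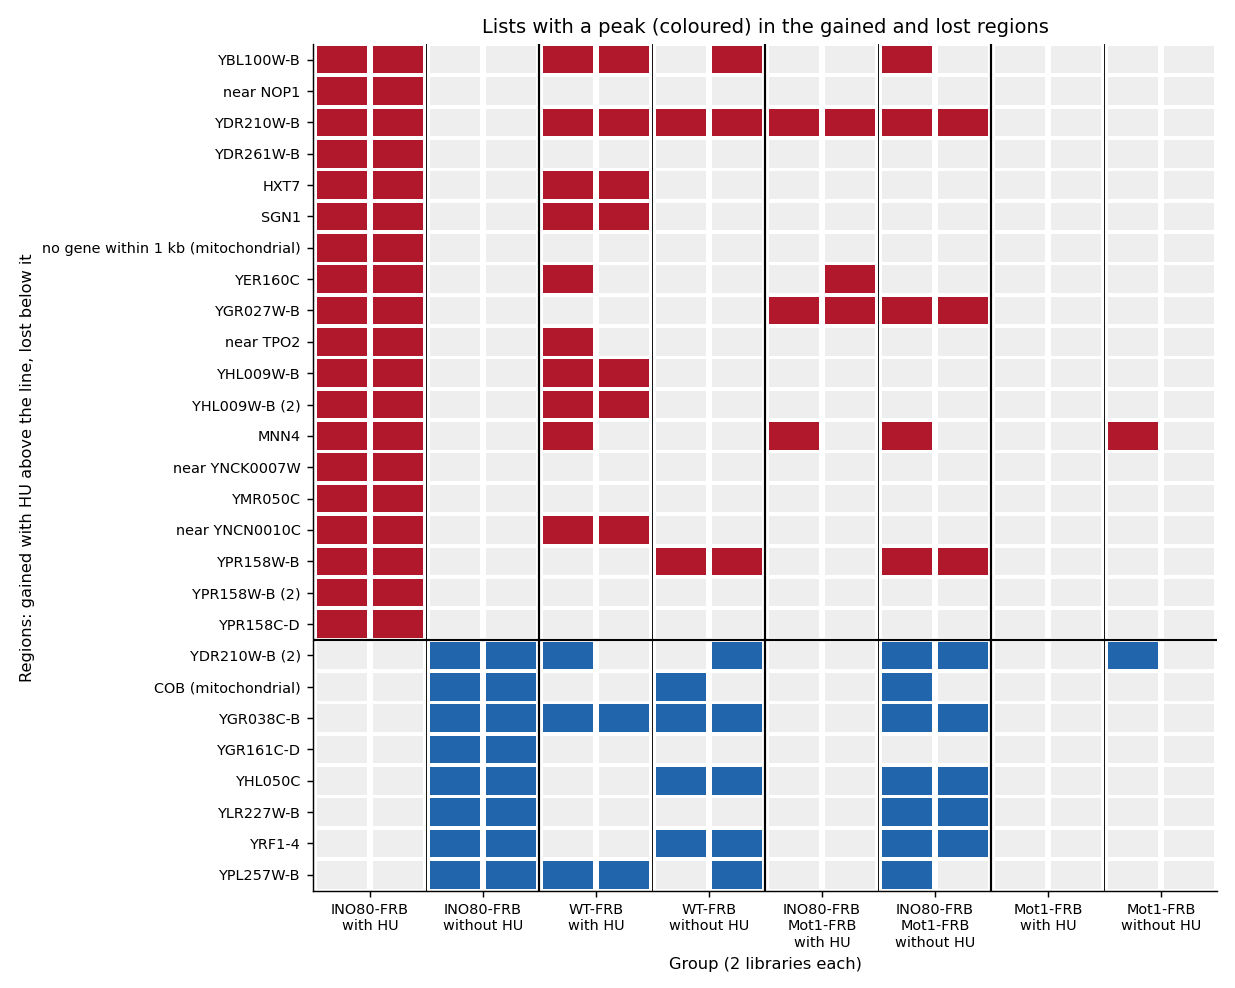
Peak presence (coloured) or absence (grey) at the 19 gained regions (red, above the line) and the 8 lost regions (blue, below it) in the 16 Break-seq lists, with 2 libraries per group and HU left of no HU in each strain. The first 4 columns were used by the rule. HXT7, SGN1, YHL009W-B and the region near YNCN0010C repeat the pattern in WT-FRB.

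Beyond the strict rule, most regions outside repeats with peaks under a single treatment had them with HU. A missing peak means only that none was called. The sides were nearer over all 431 regions. There 19 lay in both HU lists only, 30 in HU replicate 1 alone and 39 in HU replicate 2 alone. The matching counts without HU were 8, 33 and 12. Of the 94 regions outside repeats, 53 had peaks with HU only, 10 had peaks without HU only and 31 had both. Most of the 53 rested on 1 library: 7 lay in both HU lists, 19 in replicate 1 alone and 27 in replicate 2 alone. The 10 comprised 4 in replicate 1 and 6 in replicate 2 without HU. Of these 10, 1 lay in RDN37-2 of the ribosomal RNA repeat (chrXII:464323-464491, fold 1.24), which the ribosomal class as defined did not cover. Gene copies such as CUP1-1 and CUP1-2, the ENA genes, and HXT6 and HXT7 also counted as outside repeats. The shorter Ty frames that were looked up, which fall outside the length class, held 5 of the 53, 1 of the 10 and 13 of the 31. They did not include YAR010C, beside the Ty1 frame YAR009C, in which another of the 31 lay.

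Counted as peaks, 59 and 66 lay outside repeats with HU, against 38 and 30 without. That was 17.8% ± 1.80 of the list with HU and 9.92% ± 0.69 without (SD, n = 2 each), a difference of 7.83 percentage points. The groups did not overlap, and the exact permutation test gave the smallest p it can (p = 0.333, adjusted p = 0.5 over 9 tests). Over all peaks outside repeats the median summit was 34 and 36.5 reads with HU, against 52 and 51.5 without. In the regions with HU peaks only it was 27.5 and 30 reads, and in the regions seen with and without HU it was 56 and 55 reads in the HU lists. In WT-FRB the share was 27.9% ± 14.04 with HU and 28.2% ± 16.4 without (SD, n = 2 each). The difference between the strains' HU effects, 8.19 points, did not pass an exact permutation test over 36 arrangements (p = 0.444, adjusted p = 0.944, smallest possible p 0.0556), and it was -3.40 points without replicate 1 of WT-FRB with no HU.

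Orc5 sites, with 500 bp on each side, held 22 of the 53 regions with HU peaks only (41.5%), 0 of the 10 with peaks without HU only and 12 of the 31 with both (38.7%), against 34 of all 94 (36.2%). The share among regions with HU peaks only was thus near that of all regions outside repeats. Those 22 had a peak in 8 and 8 cases in WT-FRB with HU, against 1 and 1 without, and 12 had none in any WT-FRB list. The other 31 regions with HU peaks only had one in 14 and 2 cases with HU, against 2 and 2 without, and 14 had none. Over all 53 it was 22 and 10 with HU, against 3 and 3 without, and 26 had none, so more WT-FRB peaks with HU were not particular to Orc5 sites. In the 31 regions with both it was 19 and 21 with HU, against 20 and 23 without. In the 10 with peaks without HU only it was 0 and 2, against 3 and 4. The lowest background of the WT-FRB lists was 10.99 and 10.7 reads with HU, against 31.1 and 24.2 without. The part of this gap in these counts was not tested. The 22 included regions at LSO2, near ECM15 and at CCW12, the gene of a cell wall mannoprotein. Each had a peak in 1 INO80-FRB HU list and in both WT-FRB HU lists only. The region chrIV:915948-916133, 20 bp from the histone H2A gene HTA1, had a fold of 2.51 in replicate 2 with HU and no peak in the other INO80-FRB or WT-FRB lists. Over all peaks the share at Orc5 sites was 13.5% ± 0.50 with HU and 9.70% ± 2.16 without (SD, n = 2 each), with groups apart (exact permutation p = 0.333, adjusted p = 0.5). In WT-FRB it was 20.2% ± 8.05 with HU and 16.9% ± 6.06 without, so the effects of HU differed by 0.51 points between strains (exact permutation p = 0.889, adjusted p = 0.944).

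**Figure D4:**
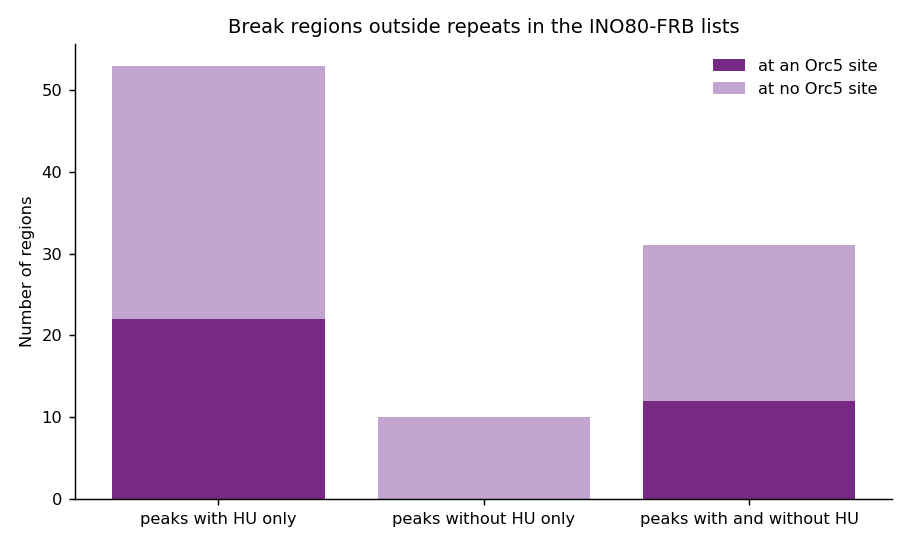
Number of merged INO80-FRB regions outside repeats (vertical axis) with peaks in HU lists only, in lists without HU only, or in both, with the part at an Orc5 site in dark purple. The bars stand at 53, 10 and 31 regions, with 22, 0 and 12 at Orc5 sites.

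Transfer RNA genes, where forks are known to pause, were taken with 500 bp on each side. They held 5.39% ± 0.28 of peaks with HU and 3.65% ± 0.27 without (SD, n = 2 each). The groups were apart there too, in WT-FRB as well, at 5.04% ± 0.90 with HU and 2.81% ± 0.18 without. In INO80-FRB these peaks all lay in the flanks: no peak of the 4 lists touched a tRNA gene itself, so without the flanks the difference was 0. Among peaks outside repeats only it was 0.959 points (exact permutation p = 1). Of the 53 regions with HU peaks only, 10 lay at tRNA genes (18.9%), near the share of all 94 regions (17, or 18.1%). At 8 of the 10 no WT-FRB list had a peak, against 26 of all 53. Promoters were taken as 500 bp before the start of each protein-coding gene. They held 9.94% ± 1.42 of peaks with HU and 7.001% ± 0.56 without. In WT-FRB they held 13.4% ± 4.74 with HU and 20.9% ± 13.2 without. The promoter difference between strains was 10.4 points and did not pass (exact permutation p = 0.333, adjusted p = 0.944). It was 1.06 points without replicate 1 and 19.7 points without replicate 2 of WT-FRB with no HU. Regions in promoters with HU peaks only included 1 near CDC34, which encodes a ubiquitin-conjugating enzyme, and others at the sodium pump genes ENA5 and ENA2, each in replicate 2 only. The ENA genes are tandem near-copies, and ENA5 and ENA1 also had a peak in a list without HU.

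The mean shares of repeated DNA were smaller with HU, and the groups overlapped in the largest class. Ty-length frames held 45.3% ± 2.002 of peaks with HU and 46.7% ± 2.47 without (SD, n = 2 each). Chromosome ends held 25.5% ± 0.24 with HU and 28.2% ± 0.77 without, and mitochondrial DNA 10.6% ± 3.58 with HU and 14.1% ± 1.32 without. For these last 2 classes the groups did not overlap, at the same exact permutation p of 0.333 (adjusted p = 0.5). Ribosomal RNA genes held 0.85% ± 0.02 with HU and 1.04% ± 0.31 without. None of the 8 differences in share, and none of the 8 comparisons of them with WT-FRB, passed the threshold, which neither test can reach with 2 libraries per group.

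**Figure D5:**
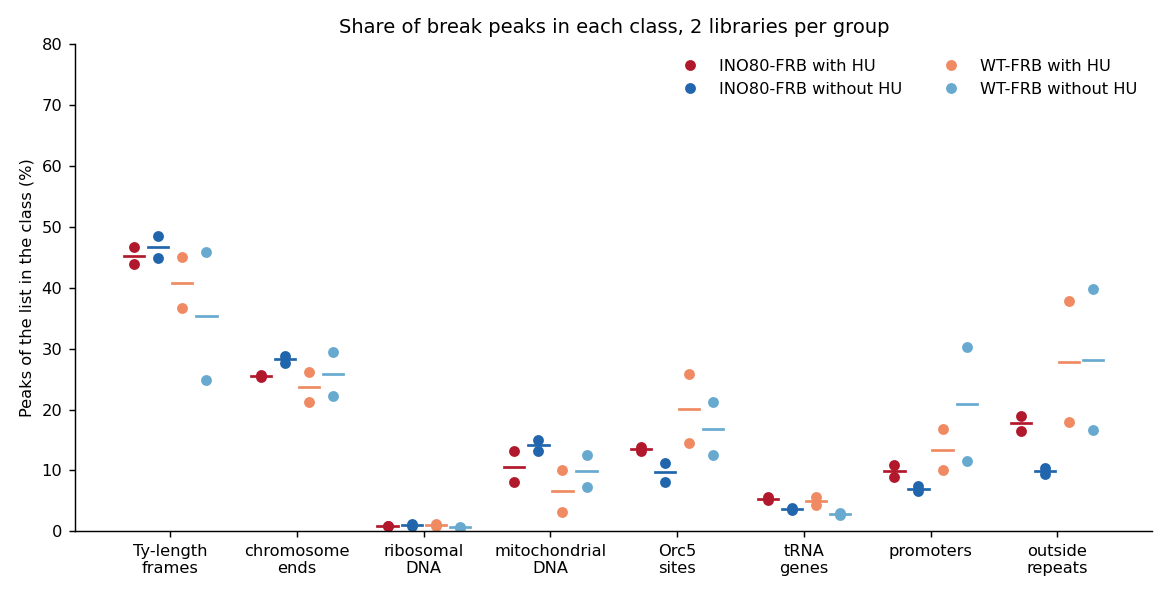
Percentage of each list's peaks (vertical axis) that overlap each class, with a point per library and a bar for the mean of 2. INO80-FRB with HU (dark red) stands left of INO80-FRB without HU (dark blue), followed by WT-FRB with and without HU. In INO80-FRB the largest gap is outside repeats, 17.8% with HU and 9.92% without, while the WT-FRB points of that class spread from 16.6% to 39.8%.

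The tallest peaks lay in shared regions. Outside repeats the highest fold of all 4 lists was chrXII:489699-490473 at RRT15 and YLR162W, with folds of 11.6 and 10.2 with HU, against 11.3 and 12.7 without. Its summits of 299 and 316 reads with HU, and 284 and 298 without, were near those of ribosomal DNA. Next came a region 206 bp from the tRNA gene YNCC0009C on chromosome III (folds of 8.27 and 8.66 with HU, against 6.93 and 7.90 without). It was followed by regions at HAP1, a haem-responsive transcription factor gene, and at the adjoining Ty1 frame YLR256W-A. The others of the 8 highest were near the tRNA gene YNCP0008C, in the Ty1 frames YLR035C-A and YAR009C, and in NUM1, whose product anchors dynein at the cell cortex. Folds were not tested between lists. The highest shared regions of Ty-length frames were in YNL054W-B, YDR034C-D and YNL284C-B, with mean folds over the 4 lists of 4.61, 4.61 and 4.25.

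At chromosome ends 59 of 98 regions were shared. All 8 YRF1 helicase genes had a peak in all 4 lists, and the highest shared end regions were at YEL077C, near YLL067C and at YHR219W, with mean folds of 5.95, 5.70 and 5.61. Median summits in ribosomal and mitochondrial DNA were far above those of other classes. They were 314 and 325 reads in ribosomal DNA with HU, against 309 and 319.5 without, and 313 and 325 in mitochondrial DNA with HU, against 293 and 312 without. In ribosomal DNA all summits lay between 313 and 326 reads with HU, against 306 and 329 without. Mitochondrial summits ranged from 268 to 326 reads with HU, against 173 to 329 without. Mitochondrial peaks covered 32.0% and 17.0% of the mitochondrial genome with HU, against 33.9% and 26.1% without, and the groups overlapped. The highest shared regions of that genome were at its tRNA genes tP(UGG)Q and tM(CAU)Q2 and at RPM1, the RNA of its RNase P.

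Few nuclear protein-coding genes had a peak within the gene, 147 of 6002 in any of the 4 lists (2.45%). None of 17 DNA damage response and ribonucleotide reductase genes, 27 replication genes, 15 INO80 complex genes, 9 histone genes and 15 glycolytic genes had one, 0 of 83 in all, which is near the share of all genes. Among 17 hexose transporter genes only HXT7 and HXT6 had peaks, both only with HU, HXT7 in both libraries and HXT6 in replicate 1. Among 5 flocculin genes, whose products make cells adhere, FLO1 had a peak in replicate 2 with HU, against both libraries without, and FLO5 in replicate 1 without HU. Of the 147 genes, 105 had a peak in all 4 lists, 6 in both HU lists only and 0 in both lists without HU only. The 6 were HXT7, MNN4, the Ty frames YHL009W-B, YJL113W and YGR109W-B, and YBL100W-A, which lies within YBL100W-B. For YJL113W and YGR109W-B, a merged region that runs past the frame's end also held a peak of replicate 1 without HU.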

How the data were processed

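Peak lists of 8 Break-seq libraries in 4 groups (INO80-FRB and WT-FRB, with and without HU) were analysed, and 8 lists of Mot1-depleted strains served for presence only. Reads were paired and 75 bp long, per the labels' protocols. The submitters' processing notes name Bowtie2 and build sacCer3; no peak caller is named. The deposited lists, 1 per library, give each peak a score, a fold ratio over local background, −log10 of a p-value and q-value, and a summit offset, all set by the authors. Depth is unknown, so summit and background reads were computed from fold and p-value under a Poisson model, and all peaks gave a whole pileup within 0.001 of −log10 p. The authors' values served description and ranking inside a list.

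Peaks were merged where they shared at least 1 bp, and a peak counted in a class with an overlap of at least 1 bp. Shares were compared with exact two-sided permutation tests over libraries, Benjamini-Hochberg adjusted over 9 tests, and p-values measure a spread that may be technical. Classes came from RefSeq R64 (6477 genes) and 1412 Orc5 peaks no wider than 10 kb. Named were all gained and lost regions by overlapping gene or nearest within 1 kb, the 8 highest shared regions outside repeats, 3 per repeat class, and gene-list members with a peak. Members and lists were chosen with earlier results of these data known; the Ty-length, Ty4 and tRNA definitions and further named regions were set after values were seen. The region rule, pileup recovery and permutation tests were checked on simulated lists. Python 3.11.15, NumPy 2.4.6, SciPy 1.17.1 and matplotlib 3.10.9 were used.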

Additional observations from a re-analysis of the deposited data

How the results depend on the processing

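Counts of regions depended on how peaks were chosen and merged. With peaks above the median score of their list, 11 regions were gained and 87 shared. With the 300 highest-scoring peaks of each list, 17 were lost, against 14 gained, so the excess of gained regions was not seen there. With peaks up to 500 bp apart merged, 9 were gained, 3 lost and 122 shared. Outside repeats 7 were gained, 0 lost and 18 shared, and without the shorter Ty frames as well, a choice made after the data were seen, 7, 0 and 9. The 9 still held the region in YAR010C, which was not among those frames. Leaving out 1 library gave 24 to 59 gained, 20 to 41 lost and 212 to 226 shared regions, since fewer lists then have to meet the rule. The other settings stayed within 1.5 times of each count.

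The higher share outside repeats with HU kept its direction in all 9 alternatives, from 4.06 points by covered base pairs to 9.10 points without HU replicate 1. It was 6.56 points or more when 1 library was left out, and 6.72 points without the shorter Ty frames. The shares at Orc5 sites (2.25 to 5.30 points without 1 library) and promoters (1.94 to 3.95), and the lower mitochondrial share (-6.07 to -1.01), kept their direction too. So did tRNA genes without 1 library (1.54 to 1.94). In each of these classes the groups did not overlap, so leaving out 1 library could not turn the sign. The replicate block could not turn it either, so only the other settings could. For tRNA genes without the 500 bp on each side, a choice made after the data were seen, the difference was 0. Among peaks outside repeats it was 0.959 points. The sign turned for Ty-length frames with peaks above the median score (2.54 points), by covered base pairs (1.09) and without 1 library (-3.16 to 0.339), and for chromosome ends with peaks above the median score (1.19, or -3.24 to -2.14 without 1 library). It turned for ribosomal DNA by covered base pairs (0.156) and without 1 library (-0.407 to 0.0294), and for the number of peaks without 1 library (-0.0504 to 0.148 on the log2 scale).

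The comparisons with WT-FRB rested on single libraries. Without 1 of the 8, the difference between the HU effects ran from -17.3 to 3.63 points for Ty-length frames, -4.24 to 3.10 for chromosome ends, -3.71 to 3.23 for mitochondrial DNA, -5.19 to 6.20 for Orc5 sites, -1.13 to 0.148 for tRNA genes, 1.06 to 19.7 for promoters and -3.40 to 19.8 outside repeats. It also turned for chromosome ends (9.11) and tRNA genes (0.712) with peaks above the median score, and for Orc5 sites among peaks outside repeats only (-4.92). The cause was not tested. No call could change under any setting. The exact permutation tests cannot give a p under 0.333 within INO80-FRB or under 0.0556 between the strains.

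Same-numbered libraries did not deviate together (correlation -0.0306 across regions), and the labels do not say that a number marks a shared batch. The replicate block leaves differences as they are, for example 7.83 points outside repeats, with an exact permutation p of 0.5, the smallest it can give. Weak peaks set the limit of these lists, since the lowest nuclear summits had 20 and 23 reads with HU, against 24 and 21 without.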
